A study of Homo sapiens with 12 samples.

Results

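The 47 genes described here are human mitosis and G2/M genes, a list of cell-cycle machinery taken by gene symbol. For each gene the transcript with the most counts summed over the 12 libraries was kept; the rule uses no difference between groups. All 47 were found among the 28087 genes of the deposited table, and all 47 passed the low-count filter that left 13113 genes for testing. The cells were MV3, an established melanoma line of human origin, and transcripts were measured by poly(A) RNA sequencing. Cells in 12-well plates received extracellular vesicles (EVs, membrane particles that cells release) at 1e10 particles per well, after 3 h in RPMI medium with 1% EV-depleted serum, and RNA was taken after 24 h. The vesicles came from THP-1 cells, a human monocytic leukaemia line, which had been turned into macrophages of the M1, M0 or M2 type for 48 h and whose medium was ultracentrifuged. The groups were M1 EV, M0 EV, M2 EV and a control that received an equal amount of PBS (Ctrl), with 3 libraries each. The polarizing agents are not named in the labels, and all wells, Ctrl included, were in the low-serum medium. PBS does not control for material other than macrophage vesicles that a preparation may hold.

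Entry into mitosis is driven by the kinase CDK1 bound to cyclin A or cyclin B, which CDC25 phosphatases switch on and the kinases WEE1 and PKMYT1 hold back. The spindle checkpoint proteins then keep CDC20 from activating the anaphase-promoting complex (APC/C), the ubiquitin ligase that destroys securin and cyclin B, until every chromosome is attached to the spindle. Most of these genes are transcribed as a wave from late S phase to mitosis, through MuvB complexes with the transcription factors MYBL2 and FOXM1 at CHR elements and through the factor NF-Y at CCAAT boxes.

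The promoters show these elements in the letters of the sequence, and 5 were chosen for display because they belong to the cyclins and to the CDC20 and PLK1 genes on which the results turn. Each line holds the 130 bases before the annotated gene start, 5′ to 3′ on the strand of the gene, from RefSeq on GRCh38.p14, with CHR matches (TTTGAA or TTCGAA on either strand) and matches to the CCAAT box on either strand in capitals.
CDC20: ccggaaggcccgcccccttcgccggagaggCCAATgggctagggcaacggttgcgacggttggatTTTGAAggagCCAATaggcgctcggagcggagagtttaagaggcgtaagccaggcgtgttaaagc
PLK1: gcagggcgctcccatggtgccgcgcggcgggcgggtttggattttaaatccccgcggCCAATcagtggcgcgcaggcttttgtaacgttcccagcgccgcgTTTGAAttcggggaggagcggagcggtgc
CCNA2: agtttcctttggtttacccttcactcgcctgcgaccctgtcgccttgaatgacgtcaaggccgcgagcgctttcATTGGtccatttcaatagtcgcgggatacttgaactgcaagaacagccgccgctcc
CCNB1: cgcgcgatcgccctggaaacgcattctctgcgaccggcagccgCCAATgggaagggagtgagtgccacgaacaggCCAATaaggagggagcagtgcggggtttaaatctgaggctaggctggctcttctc
CCNB2: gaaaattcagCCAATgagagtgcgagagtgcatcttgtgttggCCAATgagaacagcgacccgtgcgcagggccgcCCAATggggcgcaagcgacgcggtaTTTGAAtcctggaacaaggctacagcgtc
The stretch of CDC20 lies at chr1:43358851-43358980 on the plus strand, that of PLK1 at chr16:23678759-23678888 on the plus strand and that of CCNA2 at chr4:121823884-121824013 on the minus strand. Those of CCNB1 and CCNB2 lie at chr5:69167020-69167149 and chr15:59105016-59105145, both on the plus strand. Within these stretches, CDC20 and PLK1 held a CHR match (TTTGAA) and a CCAAT match, as did CCNB2, whereas CCNA2 and CCNB1 held CCAAT matches and no match to TTTGAA or TTCGAA. No match means only that these letters are not in the window.

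RefSeq promoter windows, from 250 bases before to 50 bases after the start, were matched for 39 of the 47 genes; AURKA, AURKB, BIRC5, BUB3, FOXM1, TPX2, TTK and UBE2C were not matched. A CHR match (TTTGAA or TTCGAA on either strand) was in 30 of the 39 windows (76.9%), against 16.9% of the 24882 windows of all genes. A CCAAT match on either strand was in 31 of the 39 (79.5%), against 36.1% of all windows. Both were in 26 (66.7%), against 6.7% of all windows. The motifs do not overlap in their letters, and their matches are descriptions of sequence, not of binding. Within the list the letters did not sort the genes by their values: 11 of the 15 matched genes that were called higher in M1 EV cells (73.3%) held a CHR match, as did 19 of the other 24 (79.2%).

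Libraries held 9694683 to 14379483 counts in named genes, with 1 transcript standing for each gene. Counts of the 47 genes over all 12 libraries ranged from 3581 to 84581, so none was near the detection limit. Levels are given in CPM, counts scaled to library size with TMM factors, which are shares of each library and not amounts per cell. A gene is called at a Benjamini-Hochberg adjusted p below 0.05 over all 13113 genes. Nothing in the labels tells if replicates came from separate cultures or vesicle preparations, and p-values therefore measure only the spread between these libraries, which may be technical. M0 EV replicate 1 stood farther from the other 2 libraries of its group than any other pair of replicates did, and M0 EV replicates 2 and 3 lay the closest of all replicate pairs, at 1.04 times the variance of pure counting. RNA of whole wells was measured, so more cells in G2 or mitosis and more of these transcripts per cell cannot be told apart. Of 10 melanocytic marker genes, TYR, DCT and S100B were at 0 counts in all 12 libraries and SOX10 had 2 counts, while PAX3 and MLANA were the ones that passed the low-count filter.

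In Ctrl cells, levels per kilobase of transcript put TPX2, a spindle assembly factor, first at 176 CPM per kb, ahead of UBE2C at 165 and CDC20 at 162 CPM per kb. KIF14 was the lowest of the 45 genes with a known length, at 8.68 CPM per kb, below MAD2L1 at 12.1 and CDC25C at 12.6 CPM per kb.

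M1 EV cells had small rises spread over many of these genes. Of the 47, 20 were called higher in M1 EV cells than in Ctrl (14.3% of all genes tested were called higher) and 1, ASPM, was called lower (13.7% of all genes). Among the 6890 genes in the same range of mean CPM, 19.7% were called higher and 16.4% lower. The rises that were called ran from 6.19% (TPX2) to 16.8% (KIF14), and the median log2 fold change of all 47 genes was 0.087, against 0.00079 for all genes tested. A log2 fold change above 0 was found for 40 of the 47 genes, against 50.2% of all genes, and in 21 every M1 EV library lay above every Ctrl library, against 19.6% of all genes. In 1 gene every M1 EV library lay below Ctrl, against 20.0% of all genes. At an unadjusted p below 0.05 edgeR gave 25 of the 47 genes, against 37.3% of all genes, and 21 of the 47 were called in either direction, against 28.1%.

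**Figure D1:**
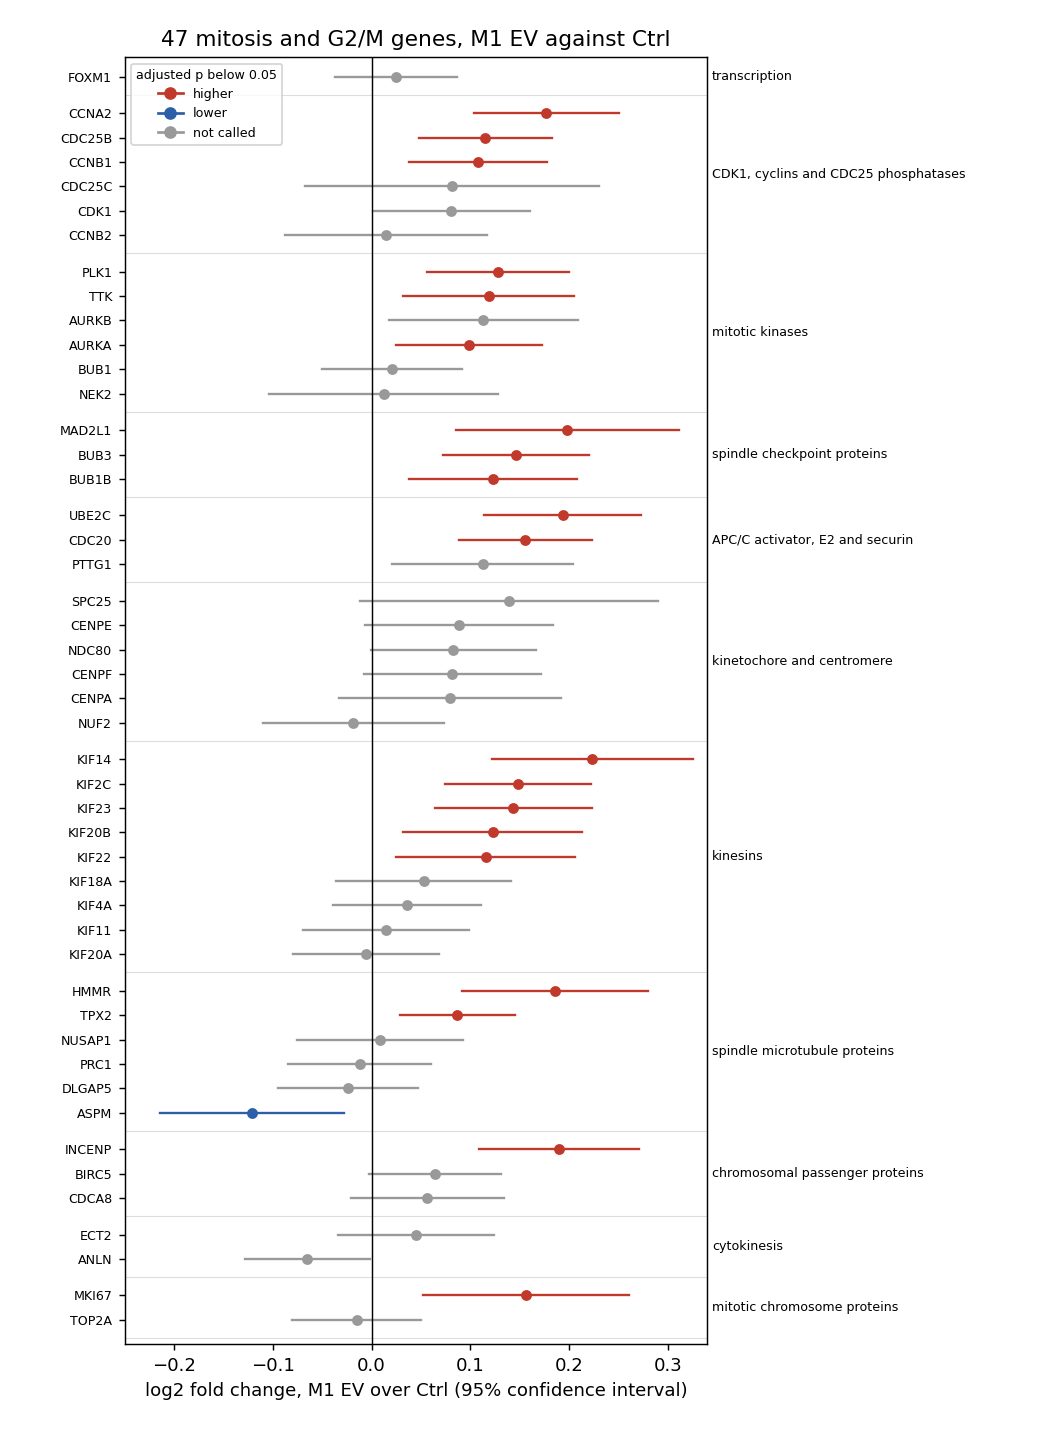
Log2 fold change of M1 EV over Ctrl for each of the 47 genes, in order of role, with 95% confidence intervals from the edgeR fit (3 libraries per group). Red points were called higher, the blue point (ASPM) was called lower and grey points were not called. Points lie above 0 for 40 of the 47 genes.

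UBE2C and CDC20, which act with the APC/C, rose in M1 EV cells. UBE2C is the ubiquitin-conjugating enzyme of the APC/C. It was at 165, 153 and 163 CPM in the M1 EV libraries, 146, 144 and 139.6 CPM in the M0 EV libraries, 146, 137 and 145 CPM in the M2 EV libraries and 141, 138 and 141 CPM in Ctrl. The M1 EV libraries were the 3 highest of the 12, and its log2 fold change against Ctrl was 0.19 (SE 0.039, edgeR adjusted p = 0.000184), a rise of 14.4%. CDC20, the APC/C activator that the spindle checkpoint holds back, was at 301, 311 and 296 CPM in the M1 EV libraries, 273, 285 and 273 CPM in the M0 EV libraries, 285, 279 and 279.6 CPM in the M2 EV libraries and 274, 267 and 275 CPM in Ctrl. Again no library of another group reached the lowest M1 EV library, and CDC20 rose by 11.4%, with a log2 fold change of 0.16 (SE 0.033, edgeR adjusted p = 0.00037). PTTG1 (securin), the separase inhibitor that the APC/C destroys, was at 104, 93.9 and 97.2 CPM in the M1 EV libraries, against 90.2, 90.6 and 91.8 CPM in the Ctrl libraries. The groups did not overlap, but its log2 fold change of 0.11 (SE 0.045, edgeR adjusted p = 0.0603) did not pass the threshold. It was called with the replicate block and without M1 EV replicate 2, and its counts are uncertain because it shares sequence with the near-identical copies PTTG2 and PTTG3P.

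Of CDK1, its cyclins and the CDC25 phosphatases, 3 of 6 were called higher (14.3% of all genes and 19.7% in the same CPM range). CCNA2, the cyclin A of S phase and early mitosis, was at 164, 172 and 171 CPM in the M1 EV libraries, 157, 155 and 156 CPM in the M0 EV libraries, 153, 153 and 149 CPM in the M2 EV libraries and 149.5, 148 and 151 CPM in Ctrl. All 3 M1 EV libraries lay above the other 9, and the log2 fold change against Ctrl was 0.18 (SE 0.036, edgeR adjusted p = 0.000208), a rise of 13.1%. CDC25B, the phosphatase that first activates CDK1 at the centrosome, was at 266, 267 and 259.6 CPM in the M1 EV libraries, against 247, 240.0 and 245 CPM in the Ctrl libraries, with no overlap and a log2 fold change of 0.12 (SE 0.033, edgeR adjusted p = 0.00739). CCNB1, the main mitotic cyclin, was at 251, 247 and 259 CPM in the M1 EV libraries, against 232, 234 and 237 CPM in the Ctrl libraries. These groups did not overlap either, and CCNB1 rose by 7.74% (log2 fold change 0.11, SE 0.035, edgeR adjusted p = 0.0165); the call was lost without Ctrl replicate 1 (adjusted p = 0.0556) or M1 EV replicate 3 (adjusted p = 0.082).

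The kinase itself was not called. CDK1 was at 265, 241 and 259 CPM in the M1 EV libraries, against 239, 253 and 231 CPM in the Ctrl libraries, with Ctrl replicate 2 above M1 EV replicate 2. Its log2 fold change was 0.081 (SE 0.039, edgeR adjusted p = 0.128), with a 95% interval of 0.0012 to 0.16. Leaving out either of those libraries made the call (adjusted p = 0.038 without Ctrl replicate 2 and 0.0278 without M1 EV replicate 2). CCNB2, the second B-type cyclin, and CDC25C, a later-acting phosphatase, had log2 fold changes of 0.014 and 0.081, with overlapping groups and 95% intervals of -0.088 to 0.12 and -0.068 to 0.23.

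The transcription factor of the list did not differ beyond its spread. FOXM1 was at 444, 455 and 439 CPM in the M1 EV libraries, 437, 444 and 447 CPM in the M0 EV libraries, 447, 441 and 432 CPM in the M2 EV libraries and 441, 432 and 443 CPM in Ctrl. The 4 groups overlapped, and the log2 fold change of M1 EV over Ctrl was 0.025 (SE 0.031, edgeR adjusted p = 0.605), with a 95% interval of -0.037 to 0.087.

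Of the mitotic kinases, PLK1, TTK and AURKA were called higher, and AURKB, BUB1 and NEK2 were not. The shares called higher were 14.3% of all genes and 19.7% in the same CPM range. PLK1, which acts at centrosomes, kinetochores and cytokinesis, was at 199, 205 and 194 CPM in the M1 EV libraries, 176, 181 and 177 CPM in the M0 EV libraries, 179, 178 and 178 CPM in the M2 EV libraries and 186, 177 and 184 CPM in Ctrl. Every M1 EV library was above the other 9, and the M0 EV and M2 EV means lay below that of Ctrl. PLK1 rose by 9.29% in M1 EV cells, a log2 fold change of 0.13 (SE 0.036, edgeR adjusted p = 0.00546). AURKA, the centrosomal Aurora kinase, was at 239, 225 and 238 CPM in the M1 EV libraries, against 213, 219.8 and 222 CPM in the Ctrl libraries. M1 EV replicate 2 lay close to the Ctrl libraries, and the call (log2 fold change 0.099, SE 0.036, edgeR adjusted p = 0.0382) was lost under 6 of 16 alternatives, among them DESeq2 (adjusted p = 0.074) and the fit without M1 EV replicate 1 (adjusted p = 0.145). TTK, the checkpoint kinase MPS1, was at 134, 131 and 141 CPM in the M1 EV libraries, against 124, 133 and 118 CPM in the Ctrl libraries, with overlapping groups and a log2 fold change of 0.12 (SE 0.043, edgeR adjusted p = 0.0347) that was likewise lost under 6 of 16. AURKB, the kinase of the chromosomal passenger complex, was at 113, 113 and 98.2 CPM in the M1 EV libraries, against 97.8, 104 and 98.1 CPM in the Ctrl libraries and had a log2 fold change of 0.11 (SE 0.047, edgeR adjusted p = 0.0705). M1 EV replicate 3 was level with the lower Ctrl libraries, and AURKB was called without it or without Ctrl replicate 2. BUB1 and NEK2 had log2 fold changes of 0.021 and 0.012, with intervals of -0.050 to 0.091 and -0.10 to 0.13.

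Of 5 spindle checkpoint genes, 4 were called higher (14.3% of all genes and 19.7% of those in the same CPM range). The 4 were the kinase TTK and the 3 that follow, while the kinase BUB1 was not called. TTK and BUB1 are also among the mitotic kinases above. BUB3, which brings the checkpoint complex to kinetochores, was at 239, 219.8 and 227 CPM in the M1 EV libraries, against 209, 209.8 and 201 CPM in the Ctrl libraries. The groups were apart, and its log2 fold change was 0.15 (SE 0.037, edgeR adjusted p = 0.00197). MAD2L1 (MAD2), which binds and holds CDC20, was at 77.2, 75.2 and 74.9 CPM in the M1 EV libraries, against 60.2, 71.1 and 66.8 CPM in the Ctrl libraries. The groups did not overlap. Ctrl replicate 1 was the lowest of the 12 libraries; without it the log2 fold change of 0.20 (SE 0.056, edgeR adjusted p = 0.00614) was no longer called (adjusted p = 0.0847). BUB1B (BUBR1), a further part of the complex that holds CDC20, was at 127, 130.2 and 135 CPM in the M1 EV libraries, against 119, 122 and 119 CPM in the Ctrl libraries, with no overlap and a log2 fold change of 0.12 (SE 0.042, edgeR adjusted p = 0.025), a call lost under 5 of 16 alternatives.

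**Figure D2:**
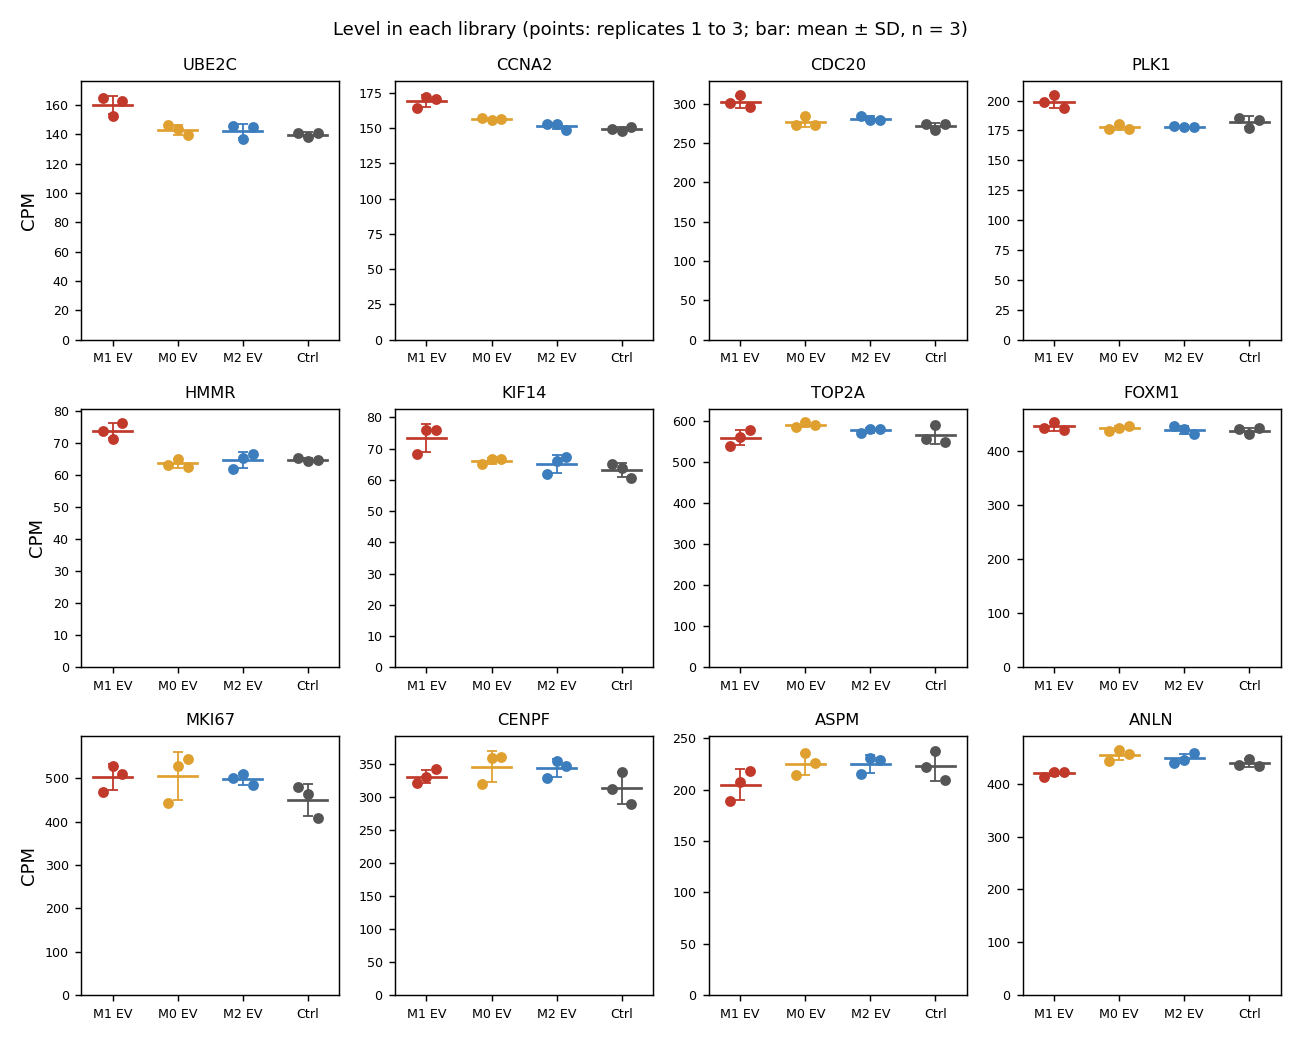
Level in CPM of 12 of the 47 genes in every library. Points are replicates 1 to 3 of M1 EV, M0 EV, M2 EV and Ctrl, bars are means ± SD (n = 3), and every axis starts at 0. The M1 EV points of UBE2C, CCNA2, CDC20, PLK1, HMMR and KIF14 lie above those of the other groups by a small share of the level, and those of TOP2A and FOXM1 lie among them.

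None of the 6 kinetochore and centromere genes was called with all libraries in the fit (28.1% of all genes were). CENPE and CENPF were called without Ctrl replicate 2. CENPA, the histone of centromeres, CENPE, the kinetochore motor, CENPF, a late-G2 kinetochore protein, and NDC80, NUF2 and SPC25, subunits of the complex that grips microtubules, had log2 fold changes of -0.019 (NUF2) to 0.14 (SPC25). Of these, 5 were above 0, and NDC80 alone had no overlap, at 122, 116 and 117 CPM in the M1 EV libraries, against 113, 113 and 109 CPM in the Ctrl libraries (adjusted p = 0.138).

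Of the 9 kinesins, motor proteins of the spindle, 5 were called higher and none lower. The shares of all genes were 14.3% and 13.7% (19.7% and 16.4% in the same CPM range). KIF14, which works in cytokinesis, was at 68.4, 76.1 and 76.1 CPM in the M1 EV libraries, 65.0, 66.6 and 66.8 CPM in the M0 EV libraries, 61.7, 66.2 and 67.3 CPM in the M2 EV libraries and 65.0, 63.7 and 60.7 CPM in Ctrl. The lowest M1 EV library was above the highest of the other 9, and its rise of 16.8% in log2 terms was 0.22 (SE 0.050, edgeR adjusted p = 0.000637). KIF2C (MCAK), which depolymerizes microtubules at centromeres, was at 182, 183 and 181 CPM in the M1 EV libraries, against 169, 159.7 and 164 CPM in the Ctrl libraries, with no overlap and a log2 fold change of 0.15 (SE 0.036, edgeR adjusted p = 0.00173). KIF23, the motor of the central spindle, was at 139, 144 and 143 CPM in the M1 EV libraries, against 130.1, 128 and 128 CPM in the Ctrl libraries, also with no overlap and a log2 fold change of 0.14 (SE 0.039, edgeR adjusted p = 0.0048). KIF20B and KIF22 had log2 fold changes of 0.12 (SE 0.045, edgeR adjusted p = 0.0366) and 0.12 (SE 0.045, edgeR adjusted p = 0.0489), and each was lost under 8 of 16 alternatives. KIF11, the motor that separates spindle poles, KIF18A, KIF20A and KIF4A had log2 fold changes of -0.0058 to 0.053 and overlapping groups; the KIF4A counts are uncertain because KIF4B is a near-identical copy.

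The spindle microtubule proteins had calls in both directions, 2 higher and 1 lower of 6. The shares of all genes were 14.3% and 13.7% (19.7% and 16.4% in the same CPM range). HMMR, a spindle-pole and hyaluronan-binding protein, was at 73.7, 71.3 and 76.1 CPM in the M1 EV libraries, 63.2, 65.0 and 62.5 CPM in the M0 EV libraries, 61.9, 65.4 and 66.5 CPM in the M2 EV libraries and 65.2, 64.4 and 64.7 CPM in Ctrl. The 3 M1 EV libraries were the highest of the 12, and the log2 fold change against Ctrl was 0.19 (SE 0.047, edgeR adjusted p = 0.00204), a rise of 13.8%. TPX2, the activator of AURKA on spindles, was at 665, 644 and 647 CPM in the M1 EV libraries, against 609, 618 and 615 CPM in the Ctrl libraries; the gap was small but so was the spread, and the log2 fold change was 0.087 (SE 0.029, edgeR adjusted p = 0.0207). The TPX2 call was lost without Ctrl replicate 1 (adjusted p = 0.0655), without M1 EV replicate 1 (adjusted p = 0.116) and with only the 2 groups in the fit (adjusted p = 0.0548).

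ASPM, a spindle-pole protein with a long transcript, went the other way. It was at 188, 207 and 218 CPM in the M1 EV libraries, 214, 236 and 226 CPM in the M0 EV libraries, 215, 231 and 229 CPM in the M2 EV libraries and 222, 238 and 209 CPM in Ctrl. M1 EV replicate 3 was above Ctrl replicate 3, so the groups overlapped, and the log2 fold change of -0.12 (SE 0.046, edgeR adjusted p = 0.0446) was lost under 6 of 16 alternatives, among them DESeq2 (adjusted p = 0.103) and the fit without Ctrl replicate 2 (adjusted p = 0.321). DLGAP5, NUSAP1 and PRC1, which bundle or stabilize spindle microtubules, had log2 fold changes of -0.024, 0.0089 and -0.012.

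In the chromosomal passenger complex, the scaffold INCENP was called and its partners BIRC5 and CDCA8 were not (28.1% of all genes were called). INCENP was at 129, 133 and 128 CPM in the M1 EV libraries, against 118, 114 and 111 CPM in the Ctrl libraries. Its groups were well apart, and it rose by 14.1%, a log2 fold change of 0.19 (SE 0.040, edgeR adjusted p = 0.000301). BIRC5 (survivin) was at 259.6, 261 and 260.0 CPM in the M1 EV libraries, against 251, 247 and 249 CPM in the Ctrl libraries. Its M1 EV libraries also all lay above Ctrl, but by 4.56%, and the log2 fold change of 0.064 (SE 0.033, edgeR adjusted p = 0.15) had a 95% interval of -0.0024 to 0.13. CDCA8 (borealin) had a log2 fold change of 0.057, with an interval of -0.021 to 0.13.

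Neither of the cytokinesis genes was called (28.1% of all genes were). ANLN (anillin), which organizes the contractile ring, was at 414, 423 and 422 CPM in the M1 EV libraries, 444, 464 and 457 CPM in the M0 EV libraries, 441, 447 and 458 CPM in the M2 EV libraries and 436, 448 and 435 CPM in Ctrl. The M1 EV libraries were the lowest 3 of the 12, but the log2 fold change against Ctrl, -0.065 (SE 0.031, edgeR adjusted p = 0.122), did not pass the threshold. ECT2, the exchange factor that starts the ring, had a log2 fold change of 0.045, with an interval of -0.034 to 0.12. TOP2A, the topoisomerase that untangles sister chromosomes, was at 539.9, 560.4 and 577 CPM in the M1 EV libraries, against 556, 591 and 549 CPM in the Ctrl libraries. Its groups overlapped, and its log2 fold change was -0.015 (SE 0.032, edgeR adjusted p = 0.777), with an interval of -0.080 to 0.050.

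MKI67 (Ki-67), the coat protein of mitotic chromosomes used as a proliferation marker, was called but with overlapping groups. It was at 469, 527 and 509 CPM in the M1 EV libraries, 442, 529 and 545 CPM in the M0 EV libraries, 500.2, 511 and 484 CPM in the M2 EV libraries and 479, 463 and 409 CPM in Ctrl. M1 EV replicate 1 lay below Ctrl replicate 1, and Ctrl replicate 3 was the lowest of the 12 libraries. Its log2 fold change of M1 EV over Ctrl was 0.16 (SE 0.052, edgeR adjusted p = 0.0195), and the call was lost with DESeq2 (adjusted p = 0.235), with all transcripts summed (adjusted p = 0.106), and without Ctrl replicate 3 (adjusted p = 0.229), M1 EV replicate 2 (adjusted p = 0.126) or M1 EV replicate 3 (adjusted p = 0.0598). Of all 47 genes it had the largest spread within groups, an SD of 0.11 on the log2 scale, and TPX2 the smallest, at 0.016.

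M1 EV replicate 1, M0 EV replicate 1 and Ctrl replicate 3, each the lowest of its group for MKI67, were also low for most other long transcripts of the list, as was M2 EV replicate 1. The median deviation of the 7 genes of the list with transcripts over 6000 nt (MKI67, ASPM, CENPF, CENPE, KIF14, KIF20B and BUB3) from their group mean was -0.061 on the log2 scale in M1 EV replicate 1, -0.049 in M0 EV replicate 1, -0.064 in M2 EV replicate 1 and -0.088 in Ctrl replicate 3. BUB3 went the other way in M1 EV replicate 1 (0.064) and M0 EV replicate 1 (0.046). KIF20B was at 0.0023 in M0 EV replicate 1 and MKI67 at 0.0060 in M2 EV replicate 1. In the same 4 libraries all tested genes over 6000 nt were at -0.040, -0.054, -0.025 and -0.030, and those under 2000 nt at 0.033, 0.028, 0.019 and 0.022. The part of this in the values of MKI67, CENPF, KIF20B and ASPM was not tested beyond leaving out each library.

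**Figure D3:**
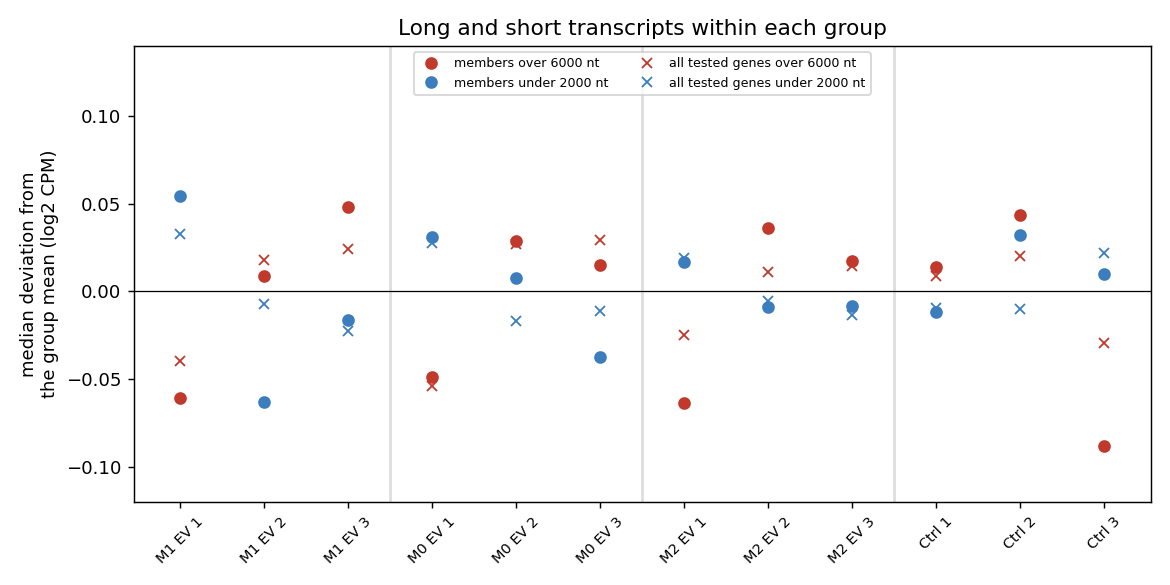
Median deviation from the group mean (log2 CPM) in each library, for genes with transcripts over 6000 nt (red) and under 2000 nt (blue). Circles are genes of the list (7 and 9 genes) and crosses are all tested genes of that length. M1 EV 1, M0 EV 1, M2 EV 1 and Ctrl 3 lie below 0 for long transcripts, in circles and crosses alike.

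Of the 21 calls between M1 EV and Ctrl, 11 held under all 16 alternatives at the same threshold: UBE2C, CCNA2, INCENP, CDC20, KIF14, KIF2C, BUB3, HMMR, KIF23, PLK1 and CDC25B. DESeq2 called 14 of the 21 and summing the transcripts of each gene left 15. Leaving out Ctrl replicate 1 left 12 calls.

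M0 EV and M2 EV cells had no called gene of the list against Ctrl, in a fit that called 0.0153% of all genes for M0 EV (0.00763% in each direction) and 0.0458% for M2 EV (0.0153% higher and 0.0305% lower). These shares are 2 and 6 genes and moved with the fit: M0 EV against Ctrl had 87 called genes without M0 EV replicate 1 and 53 with no low-count filter, and M2 EV against Ctrl had 62 with only the 2 groups in the fit and 31 with no filter. At an unadjusted p below 0.05, edgeR gave 6 of the 47 in each comparison, all higher, against 5.07% of all genes for M0 EV and 6.21% for M2 EV, and DESeq2 also called 0 in both. The median log2 fold change of the 47 genes was 0.035 in M0 EV cells and 0.028 in M2 EV cells, against 0.0032 and 0.0013 for all genes. A log2 fold change above 0 was found for 39 of the 47 in M0 EV cells (51.9% of all genes) and for 43 in M2 EV cells (50.6% of all genes). All comparisons with Ctrl share the same 3 Ctrl libraries, so these counts are not separate evidence. Groups lay apart, with the vesicle libraries higher, for 9 genes in M0 EV cells (5.00% of all genes) and 6 in M2 EV cells (5.80%). With the vesicle libraries lower, they lay apart for 0 genes in M0 EV cells (5.19% of all genes) and 0 in M2 EV cells (5.94%).

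The smallest p-values against Ctrl fell on genes with long transcripts. For M0 EV they were those of CENPF, at a log2 fold change of 0.14 (SE 0.044, edgeR adjusted p = 0.516), MKI67, at 0.17 (SE 0.051, edgeR adjusted p = 0.551), and KIF20B, at 0.13 (SE 0.044, edgeR adjusted p = 0.714). CENPF was at 321, 329 and 342 CPM in the M1 EV libraries, 319, 358 and 359.8 CPM in the M0 EV libraries, 328, 355 and 347 CPM in the M2 EV libraries and 312, 337 and 289 CPM in Ctrl. Ctrl replicate 3 was the lowest library and M0 EV replicates 2 and 3 the highest. For M2 EV the smallest p-values were those of KIF20B, at a log2 fold change of 0.15 (SE 0.043, edgeR adjusted p = 0.287), CENPF, at 0.14 (SE 0.044, edgeR adjusted p = 0.417), and CENPE, at 0.14 (SE 0.046, edgeR adjusted p = 0.488). KIF20B, a kinesin of the late cytokinetic bridge, was at 90.9, 94.9 and 97.5 CPM in the M1 EV libraries, 94.9, 95.3 and 94.1 CPM in the M0 EV libraries, 91.2, 96.3 and 100.2 CPM in the M2 EV libraries and 88.0, 88.9 and 83.8 CPM in Ctrl. All 9 vesicle libraries were above all 3 Ctrl libraries. MKI67 and CENPF were called for M0 EV with no low-count filter or without M0 EV replicate 1, and for M2 EV with no low-count filter or with only the 2 groups in the fit.

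Between M1 EV and M0 EV cells, 12 of the 47 genes were called, against 25.3% of all genes tested, so the total is close to that background. Of the 12, 10 were higher (12.5% of all genes tested) and 2 lower (12.8%). HMMR had the smallest adjusted p, at a log2 fold change of 0.21 (SE 0.046, edgeR adjusted p = 0.000448), followed by PLK1 at 0.16 (SE 0.035, edgeR adjusted p = 0.000493) and UBE2C at 0.16 (SE 0.039, edgeR adjusted p = 0.00174). These 3 genes rose by 16.0%, 12.0% and 11.7%, and in each every M1 EV library lay above every M0 EV library. CDC20, KIF2C, BUB3, KIF14, CCNA2 and INCENP were called higher by 8.17% (CCNA2) to 11.4% (KIF14). Among these, KIF14 and INCENP were lost with DESeq2. CCNA2, KIF14 and INCENP were lost without M1 EV replicate 2, CCNA2 and INCENP without M0 EV replicate 2, INCENP without M0 EV replicate 1, KIF14 without M1 EV replicate 3 and BUB3 without M1 EV replicate 1. AURKB was called here at a log2 fold change of 0.17 (SE 0.047, edgeR adjusted p = 0.00534), with 113, 113 and 98.2 CPM in the M1 EV libraries, against 97.8, 96.9 and 92.5 CPM in the M0 EV libraries. ANLN fell by 7.64% (log2 fold change -0.11, SE 0.031, edgeR adjusted p = 0.00489), with no overlap. ASPM fell by 8.93% (log2 fold change -0.13, SE 0.046, edgeR adjusted p = 0.0251), with overlapping groups. The ASPM call was lost with DESeq2, with all transcripts summed, without M0 EV replicate 2, M0 EV replicate 3 or M1 EV replicate 1, and with M0 EV replicates 2 and 3 summed. In all, 32 of the 47 genes had a log2 fold change above 0 (48.5% of all genes) and 19 an unadjusted p below 0.05 (34.9%). Groups lay apart for 18 genes with M1 EV higher (18.2% of all genes) and 5 with M1 EV lower (18.4%). Among the 6890 genes in the same range of mean CPM, 16.9% were called higher and 15.7% lower.

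Against M2 EV cells, M1 EV cells also had 12 called genes of the 47, against 24.6% of all genes, so this total too is close to background. Of the 12, 10 were higher (12.6% of all genes) and 2 lower (12.0%). The M1 EV libraries are the same in both comparisons. PLK1 had the smallest adjusted p, at a log2 fold change of 0.16 (SE 0.035, edgeR adjusted p = 0.000569), then CCNA2 at 0.16 (SE 0.035, edgeR adjusted p = 0.000652), UBE2C at 0.17 (SE 0.038, edgeR adjusted p = 0.000869) and HMMR at 0.19 (SE 0.045, edgeR adjusted p = 0.00175). PTTG1 was called here, at 104, 93.9 and 97.2 CPM in the M1 EV libraries, against 93.7, 85.5 and 86.4 CPM in the M2 EV libraries and a log2 fold change of 0.16 (SE 0.044, edgeR adjusted p = 0.00794), with the same uncertainty over its copies. KIF14, BUB3, KIF2C, CDC20 and INCENP were the others called higher, by 7.75% (CDC20) to 12.8% (KIF14). ANLN fell by 6.36% (log2 fold change -0.095, SE 0.031, edgeR adjusted p = 0.0206). ASPM fell by 9.12% (log2 fold change -0.14, SE 0.045, edgeR adjusted p = 0.0211). A log2 fold change above 0 was found for 33 of the 47 genes (49.2% of all genes) and an unadjusted p below 0.05 for 19 (34.7%). Groups lay apart for 17 genes with M1 EV higher (18.1% of all genes) and 2 with M1 EV lower (18.4%). Of the genes in the same range of mean CPM, 17.0% were called higher and 14.2% lower. The 12 calls between M1 EV and M2 EV fell to 6 without M2 EV replicate 2 and to 7 without M1 EV replicate 1. In the fit without M2 EV replicate 2, BUB3, CDC20, PTTG1, ASPM, INCENP and ANLN were lost, and in the fit without M1 EV replicate 1, BUB3, PTTG1, ASPM, INCENP and ANLN. ASPM and INCENP were also lost with DESeq2 and with all transcripts summed. Without M2 EV replicate 3, KIF2C, ASPM, INCENP and ANLN were lost, without M1 EV replicate 2 CDC20 and INCENP, and INCENP also without M2 EV replicate 1 or with no low-count filter.

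Between M2 EV and M0 EV cells 0 of the 47 genes were called by edgeR or DESeq2, with 0.00% of all genes called by edgeR, and 1 of the 47 had an unadjusted p below 0.05 (3.41% of all genes). That gene was CENPE, at 141, 149.8 and 147 CPM in the M2 EV libraries, against 131, 138 and 137 CPM in the M0 EV libraries and a log2 fold change of 0.11 (SE 0.045, edgeR adjusted p = 1). Next in order of p were AURKB and CCNA2, at log2 fold changes of 0.074 and -0.047, with intervals of -0.019 to 0.17 and -0.12 to 0.025. Groups lay apart for 2 genes with M2 EV higher (4.54% of all genes) and 3 with M2 EV lower (4.45%). The median of the 47 genes was -0.0027, against -0.0026 for all genes, and 19 of the 47 were above 0 (48.3% of all genes).

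**Figure D4:**
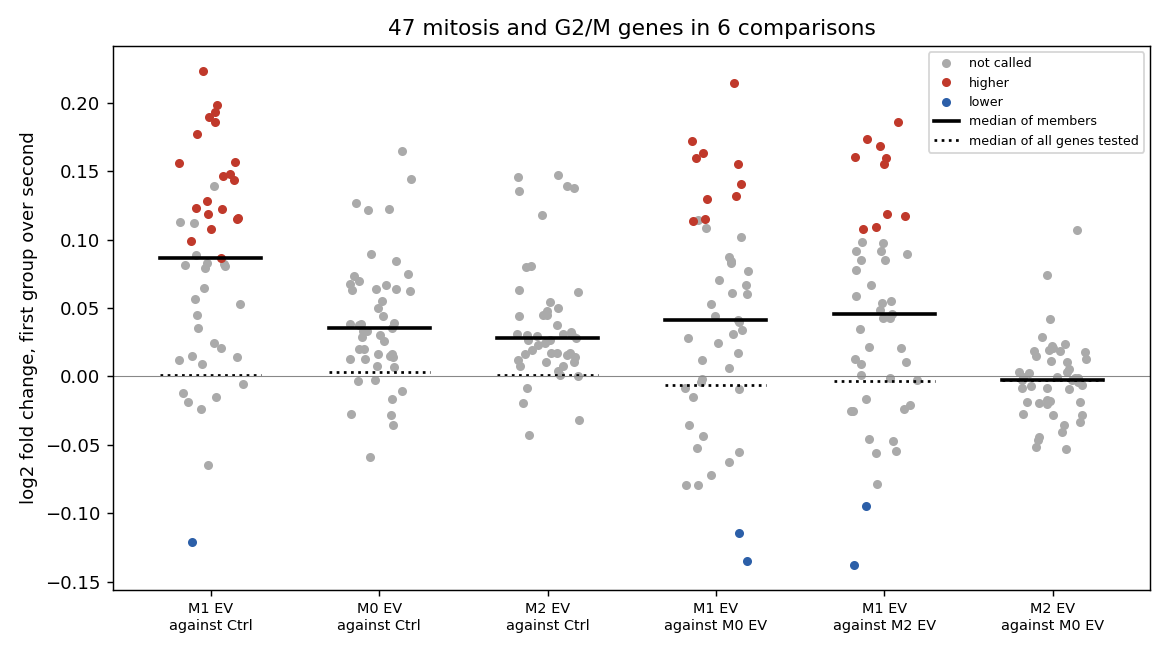
Log2 fold changes of the 47 genes in 6 comparisons (first group over second). Each point is a gene, coloured where it was called, solid bars are the medians of the 47 and dotted bars those of all 13113 genes tested. The median of the list is highest for M1 EV against Ctrl (0.087) and near 0 for M2 EV against M0 EV.

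The order of the group means differed from gene to gene. M1 EV had the highest mean of the 4 groups for 30 of the 47 genes, and Ctrl the lowest for 34. The commonest order, M1 EV, M0 EV, M2 EV, Ctrl, was found for 15 genes, and 5 genes, ANLN and ASPM among them, had the order M0 EV, M2 EV, Ctrl, M1 EV. These orders were not counted over all genes tested, so no background share stands beside them. Summed over the 47 genes, the level was 9026 ± 71.9 CPM in M1 EV cells, 8880 ± 104 CPM in M0 EV cells, 8835 ± 68.5 CPM in M2 EV cells and 8598 ± 151 CPM in Ctrl (SD, n = 3 each). The M1 EV sum was 4.98% over Ctrl, and the lowest M1 EV library (8968 CPM) was above the highest Ctrl library (8750 CPM). The M0 EV and M2 EV sums were 3.28% and 2.76% over Ctrl. Their lowest libraries (8777 and 8756 CPM) also lay above every Ctrl library. M0 EV replicate 2 (8985 CPM) lay above the lowest M1 EV library, so M1 EV and M0 EV overlapped.

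Other genes of the same pathways, 110 tested of 111 listed (SFN was not tested), gave 23 higher (20.9%) and 4 lower in M1 EV cells against Ctrl, with a median log2 fold change of 0.041, against 0.00079 for all genes. The share called higher was 14.3% over all genes and 19.7% over those in the mean CPM range of the 47, so the 20.9% is close to that background; the shares called lower there were 13.7% and 16.4%. Between M1 EV and M0 EV cells the same genes gave 18 higher (16.4%, against 12.5% of all genes) and 3 lower (12.8% of all genes). Between M1 EV and M2 EV cells they gave 17 higher (15.5%, against 12.6%) and 3 lower (12.0%). In the mean CPM range of the 47, 16.9% and 17.0% of genes were called higher in these comparisons, so both shares are close to that background. In the other comparisons 0 were called by edgeR. The regulators of the mitotic gene wave had 3 of 13 called higher (23.1%) and 1 lower in M1 EV cells against Ctrl. The background shares are those given above for that comparison. MYBL2, the B-MYB factor that joins the MuvB complex, averaged 252 ± 7.62 CPM in M1 EV cells and 211 ± 0.718 CPM in Ctrl, a log2 fold change of 0.26 (edgeR adjusted p = 1.99e-07). E2F4, a repressor E2F of the same complexes, averaged 130.5 ± 3.11 CPM in M1 EV cells and 114 ± 1.02 CPM in Ctrl (log2 fold change 0.20, edgeR adjusted p = 0.000173). LIN54, the DNA-binding subunit of MuvB at CHR elements, averaged 49.0 ± 1.85 CPM in M1 EV cells and 57.4 ± 0.658 CPM in Ctrl, a log2 fold change of -0.23 (edgeR adjusted p = 0.00118).

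Among genes that hold CDK1 back, 3 of 7 were called higher (42.9%) and none lower. Background shares called higher were 14.3% of all genes and 19.7% in the mean CPM range used above. CDKN1A (p21), the cyclin-dependent kinase inhibitor, averaged 18.5 ± 0.865 CPM in M1 EV cells and 7.23 ± 0.406 CPM in Ctrl (SD, n = 3 each), the largest log2 fold change of the pathway lists at 1.35 (edgeR adjusted p = 2.21e-14). It was also called higher in M1 EV than in M0 EV cells (log2 fold change 1.07, edgeR adjusted p = 2.7e-12) and M2 EV cells (log2 fold change 1.12, edgeR adjusted p = 3.69e-13). GADD45A, a stress-induced G2 checkpoint gene, averaged 48.4 ± 4.06 CPM in M1 EV cells and 35.1 ± 1.03 CPM in Ctrl (log2 fold change 0.46, edgeR adjusted p = 2.03e-07). PKMYT1, which phosphorylates and inhibits CDK1, averaged 84.5 ± 2.77 CPM in M1 EV cells and 71.5 ± 2.67 CPM in Ctrl (log2 fold change 0.24, edgeR adjusted p = 0.000238). WEE1, which does the same in the nucleus, averaged 67.0 ± 1.57 CPM in M1 EV cells and 72.7 ± 4.75 CPM in Ctrl and was not called (log2 fold change -0.12, edgeR adjusted p = 0.0733).

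Of 28 other kinetochore and checkpoint genes, 6 were called higher (21.4%) and 2 lower. Background shares called higher were 14.3% of all genes and 19.7% in the mean CPM range used above, and 21.4% is close to the latter. Those called lower were 13.7% and 16.4%. SPDL1 (spindly), which brings dynein to kinetochores, averaged 101 ± 4.01 CPM in M1 EV cells and 86.9 ± 3.87 CPM in Ctrl (log2 fold change 0.22, edgeR adjusted p = 0.000185). TRIP13, the ATPase that takes MAD2 out of the checkpoint complex, averaged 115 ± 3.68 CPM in M1 EV cells and 99.5 ± 6.61 CPM in Ctrl (log2 fold change 0.21, edgeR adjusted p = 0.000262). Within the SKA complex, which follows microtubule ends, SKA1 rose by 0.22 and SKA2 fell, at -0.15, both on the log2 scale (edgeR adjusted p = 0.00153 and 0.00464).

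Of 17 APC/C subunits and regulators, 2 were called higher (11.8%, below the 14.3% of all genes) and 1 lower (13.7% of all genes). UBE2S, which extends the chains that UBE2C starts, averaged 326 ± 13.5 CPM in M1 EV cells and 269 ± 10.4 CPM in Ctrl (log2 fold change 0.28, edgeR adjusted p = 6.5e-07). ANAPC16, a subunit, had a log2 fold change of -0.20 (edgeR adjusted p = 0.00251), and ANAPC10, another subunit, of 0.33 (edgeR adjusted p = 0.0461). Of 8 condensin subunits, which compact chromosomes, NCAPD3 and NCAPH were called higher, at log2 fold changes of 0.18 and 0.17 (edgeR adjusted p = 0.000482 and 0.00131). These calls are 25% of the set, against 14.3% of all genes and 19.7% in the mean CPM range used above. All 8 were above 0, as were 50.2% of all genes. Of 12 cohesin, shugoshin and separase genes, SGO2 and CDCA5, protectors of sister cohesion, were called higher, at 0.15 and 0.13 (edgeR adjusted p = 0.0102 and 0.011). That is 16.7% of the set, to be read against the same background shares. Of 25 other spindle, centrosome and cytokinesis genes, 5 were called higher (20%) and none lower. In the mean CPM range used above, 19.7% of genes were called higher and 16.4% lower, so the 20% is close to that background. CKAP2L, a spindle-pole protein, led the 5. It averaged 224 ± 4.68 CPM in M1 EV cells and 182 ± 4.32 CPM in Ctrl (log2 fold change 0.30, edgeR adjusted p = 1.7e-08). ARHGAP11A and TACC3 followed, at log2 fold changes of 0.16 and 0.15 (edgeR adjusted p = 0.00115 and 0.00373).

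Macrophage marker genes were read in the same libraries. Of 19 listed, 13 had under 10 counts over all 12 libraries, with CD163, FCGR3A, TYROBP and LCP1 at 0 and PTPRC and SPI1 at 2 counts each. Their summed level was 70.9 to 72.6 CPM in M1 EV cells, 58.6 to 60.0 CPM in M0 EV cells, 60.6 to 63.2 CPM in M2 EV cells and 55.9 to 63.1 CPM in Ctrl. Nearly all of it was CD68, a lysosomal gene that was present in Ctrl as well, and which averaged 66.9 ± 0.732 CPM in M1 EV cells and 56.7 ± 3.68 CPM in Ctrl. The lysosomal protease CTSS, the other tested gene of the list, averaged 3.25 ± 0.951 CPM in M1 EV cells and 0.805 ± 0.273 CPM in Ctrl, and both were called higher in M1 EV cells (edgeR adjusted p = 0.000244 and 7.25e-07). The part of macrophage RNA in the levels of the mitotic genes was not tested.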

How the data were processed

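Messenger RNA of 12 MV3 libraries was sequenced on directional poly(A) libraries, per the labels' protocols. Per the submitters' processing notes, hg38 was the build and STAR (2.6.1b) and HOMER (4.10) were used, in roles not stated; use of the strand in counting is not stated either. The authors deposited expected counts (not normalized) for 70507 RefSeq transcripts, in steps of 0.5, with 51.3% of the non-zero values not whole. RefSeq named 69830 transcripts and GENCODE release 29 a further 327; 350 unnamed ones (0.0608% to 0.0643% of each library) were left out. The transcript with the most counts stood for each gene, rounded to whole counts. The column of M0 EV replicate 1 misspells the cell line in its header but gives the group and replicate number.

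Counts were fitted in R 4.3.3 with edgeR 4.0.16 (default filter, TMM factors of 0.993 to 1.007, quasi-likelihood test, 4 groups, all 12 libraries, 8 residual degrees of freedom, common biological coefficient of variation 2.59%). The SE is the log2 fold change divided by the square root of the F statistic, and intervals are at 95%. P-values were 2-sided and adjusted over 13113 genes within each of 6 comparisons. The method was tested on simulated data.

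The members and lists were chosen with earlier results of these data known. Values were given for the 15 genes with the smallest adjusted p in M1 EV against Ctrl, any called lower, 8 fixed genes, up to 8 in each other comparison (the 3 smallest p-values where none was called), up to 3 per pathway list, and CDKN1A, WEE1 and MYBL2. Other genes named were chosen after their values were seen. Alternatives were DESeq2 1.42.0, limma-voom (limma 3.58.1), RLE and upper-quartile scaling, no filter, a mean of at least 1 CPM, only the 2 groups compared, a replicate block, summed transcripts, a threshold of 0.01 and leaving out each library; M0 EV replicates 2 and 3 summed and the spread without M0 EV replicate 1 were added after seeing the data.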

Additional observations from a re-analysis of the deposited data

How the results depend on the processing

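Over the 46 gene values and their 782 checks, 736 kept direction and side of the threshold, 36 lost the call, 8 gained it and 2 reversed. Both reversals were of TOP2A in M1 EV against Ctrl, never called, at 0.019 without Ctrl replicate 2 and 0.0077 without M1 EV replicate 1, in a range over the left-out libraries of -0.038 to 0.019. The 46 values were mostly the smallest p-values of each comparison, so the total does not measure how stable all calls were. The less stable calls of KIF20B, KIF22, TTK and BUB1B in M1 EV against Ctrl are not among them. Of all 21 calls in that comparison, 11 held under every alternative at the same threshold. Calls at an adjusted p below 0.01 numbered 12 of the 47 genes for M1 EV against Ctrl and 6 for M1 EV against M2 EV, in place of 21 and 12. Leaving out 1 library at a time gave 12 to 22 calls for M1 EV against Ctrl, 9 to 14 for M1 EV against M0 EV, 6 to 14 for M1 EV against M2 EV, 0 to 2 for M0 EV against Ctrl and 0 to 0 for M2 EV against Ctrl and against M0 EV. Where this left a group of 2, the spread was shared with the other groups. Dropping the low-count filter gave 2 calls in each of M0 EV and M2 EV against Ctrl, and with only the 2 groups in the fit 2 for M2 EV; the cause was not tested. Over all genes, calls for M0 EV against Ctrl numbered 2, but 53 with no filter, 20 with the block and 87 without M0 EV replicate 1; for M2 EV against Ctrl they numbered 6, but 31 with no filter and 62 with only the 2 groups.

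Same-numbered libraries deviated together only weakly (r across genes -0.048 to 0.090), so the numbers were not taken to pair the samples. With the replicate block, 22 of the 47 genes were called for M1 EV against Ctrl (PTTG1 added), 13 for M1 EV against M0 EV, 13 for M1 EV against M2 EV and 0 in the other comparisons. With M0 EV replicates 2 and 3 summed into 1 library, M1 EV against M0 EV had 11 calls. A p that misses the threshold does not show equality.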
